A study of Drosophila melanogaster with 6 samples.

Results

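The subject is a set of 150 probe sets whose signal fell in order over the 3 wild-type arrays, highest in wt_01, lower in wt_02 and lowest in wt_03. They were taken from 18769 numeric probe sets on single-colour Affymetrix arrays of Drosophila melanogaster larval fat body. They were chosen by their wild-type values: a probe set had to reach the floor of 19.9 (the target signal of 99.4 divided by 5) in at least 3 arrays and in wt_01, to fall in strict order, and to be among the 150 largest falls on the log2(signal + 5) scale. Probe sets at or above the floor in all wild-type arrays and under it in all mutant arrays had been left out beforehand. Of 8538 probe sets that reached the floor in at least 3 arrays, 1590 met the order, and the 150 are the steepest of those.

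The mutant arrays KG_01, KG_02 and KG_03 came from larvae homozygous for srl1, an allele of spargel (srl), and the wild-type arrays came from larvae labelled srlwt/srlwt. Each array held RNA from a pool of 20 fat bodies of larvae aged 5 days, and 30 ng of total RNA was amplified in a two-cycle protocol. The text on age and dissection is the same for both groups and speaks of mutant larvae. One description disagrees with its title, that of KG_03, which names KG_02, and the titles were used throughout. The series title calls the control genetically matched, and its design calls the 3 arrays of each group biological replicates.

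The larval fat body is the fly's counterpart of liver and adipose tissue: it stores lipid and glycogen, makes the storage proteins and lipoproteins of the blood, and senses nutrients. Spargel is the Drosophila member of the PGC-1 coactivator family, whose mammalian proteins act with nuclear receptors and other transcription factors on genes of mitochondria and energy metabolism. During the last larval stage, ecdysone changes the fat body from growth to storage, and in the salivary gland it turns on the glue genes. These points are background and were not measured here.

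Gene names came from a platform annotation. It paired 137 of the 150 probe sets with a single gene, 2 with several genes and 11 with none, and the 137 stood for 135 different genes. No probe set was paired with srl in that table, so the level of srl was not analysed here. No sequences were available for the probe sets, so none are shown.

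Before scaling, the mean signal with 2% trimmed at each end was 46.5 in KG_01 and 97.0 to 125 in the other 5 arrays, so KG_01 was multiplied by 2.14 and wt_01 by 0.793. KG_02 stood apart from the other mutant arrays: over all 8538 probe sets it correlated with them at r = 0.905 and 0.919 and with the wild-type arrays at 0.949 to 0.967 (across probe sets, which are not independent replicates). Mutant values are therefore given array by array, and the counts of calls with and without KG_02. Precision is limited by having 3 arrays a group.

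The fall itself was the basis of the choice and is described without a test. The median signal of the 150 was 145 in wt_01, 84.3 in wt_02 and 62.1 in wt_03. Over all 8538 probe sets the medians were 94.9, 98.0 and 98.7 in the same order, so the set fell while the bulk of the array did not. Together the 150 made up 1.61% of all signal in wt_01, 0.959% in wt_02 and 0.689% in wt_03. The median fall from wt_01 to wt_03 was 1.05 on the log2 scale, with a range of 0.82 to 3.60. In plain ratios the median was 2.17-fold, or 2.09-fold with the 22 probe sets that were under the floor in wt_03 set to the floor. A median of 55.3% of the log2 fall lay between wt_01 and wt_02, with quartiles of 43.9% and 72.8%.

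The limit of the set was not a natural gap. The last 2 probe sets inside were those of pps and CG8611, with falls of 0.8233 and 0.8231 on the log2 scale. The first 2 outside were those of Neb-cGP and mEFG1, with 0.8222 and 0.8196. CG8611 had signals of 109.9, 82.9 and 59.9 in wt_01, wt_02 and wt_03, and Neb-cGP had 137, 121 and 75.1.

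The steepest fall was that of CG11370 (1625894_at), with signals of 304, 24.3 and 20.4 in wt_01, wt_02 and wt_03. Its mutant signals were 116 in KG_01, 40.6 in KG_02 and 2.40 in KG_03. One wild-type array thus stood far above the other two, and the mutant arrays were spread over most of that range. Among the 10 steepest falls, 2 were far brighter than the others. The first, Ag5r (1625266_at), encodes a secreted protein of the antigen-5 family and had 3573, 1244 and 869 in the wild type. Its mutant signals were 423 in KG_01, 943 in KG_02 and 295 in KG_03, so that KG_02 lay just above wt_03 and the other mutant arrays under it. The second was nol (1632849_at), described with the mutant comparison. The other 7 of the 10 steepest were dimmer. CG2187 had 209, 112 and 55.8 in the wild type, against 26.8, 60.4 and 10.6 in KG_01, KG_02 and KG_03. CG7560 had 136, 69.2 and 30.4, against 19.2, 65.6 and 15.9. In both, KG_02 was the highest mutant array and the only one at or above wt_03. Pde9, a phosphodiesterase that degrades cyclic GMP, and CG6733, CG31198, CG13067 and CG15629 were at 86.9 or less in wt_01 and under the floor in wt_03. Their falls were at least 1.27-fold to at least 4.37-fold against the floor, and their place in the order rests on signals near background.

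**Figure D1:**
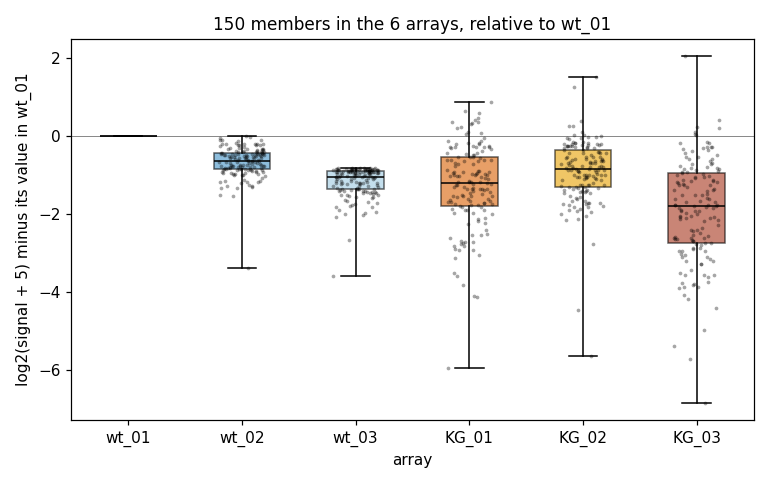
Each point is 1 of the 150 probe sets, plotted as log2(signal + 5) minus its own value in wt_01, by array; boxes give the quartiles and median, and whiskers the full range. The wild-type boxes step down because the rule chose them so, while the mutant boxes, which the rule used only for detection, have medians of -1.20, -0.85 and -1.80 in KG_01, KG_02 and KG_03.

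The question put to the mutant arrays was where they lie on the wild-type gradient. For each probe set a position was computed on the log2(signal + 5) scale, with 1 at wt_01 and 0 at wt_03, so that a value below 0 means a signal lower than in any wild-type array. The median position was 0.23 in KG_02, -0.05 in KG_01 and -0.60 in KG_03. The KG_02 array thus lay between wt_03 and wt_02 (whose median position, by the rule, was 0.45), KG_01 lay at wt_03, and KG_03 lay beyond the low end. The contrast between KG_01 and KG_03 was not seen over all 1590 probe sets that fell in order, where the median positions were 0.30 in KG_02, -0.80 in KG_01 and -0.76 in KG_03. A position is a share of each probe set's own fall. The median fall was 0.38 on the log2 scale for the 1590 and 1.05 for the 150. The sizes of positions in the 2 sets are therefore not comparable as log2 distances. The mean of the 3 mutant arrays had a median position of -0.15, and without KG_02 it was -0.35.

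All 3 mutant arrays were mostly below wt_01. KG_01 was above wt_01 at 14 of the 150 probe sets, KG_02 at 8 and KG_03 at 7. Over all 8538 probe sets these arrays were above wt_01 at 56.8%, 56.9% and 57.8%. Since the 150 were picked for a high value in wt_01, any other array would tend to be lower there, and nothing is read from these counts beyond the description. The counts below wt_03 also rest on wild-type values that the rule used and are given as a description. KG_03 was below wt_03 at 109 of the 150 (72.7%), against 67.0% of the 1590 that fell in order and 41.6% of all 8538 probe sets. KG_01 was below wt_03 at 79 of the 150 (52.7%), against 65.5% of the 1590 and 43.8% of all. KG_02 was below wt_03 at 45 of the 150 (30.0%), against 35.3% of the 1590 and 51.2% of all, and lay within the wild-type range at 97. Low positions of KG_03 and KG_01 were thus common to probe sets that fell in order and were not particular to the 150. KG_03 was under the floor at 51 of the 150 (34%), against 7.11% of the 1590 and 3.76% of all. That share was thus larger in the 150 than in either background, and this was not tested. KG_01 was under the floor at 9 of the 150, against 4.15% of the 1590 and 2.92% of all. KG_02 was under it at 11 of the 150 (7.33%), against 2.77% of the 1590 and 5.29% of all.

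**Figure D2:**
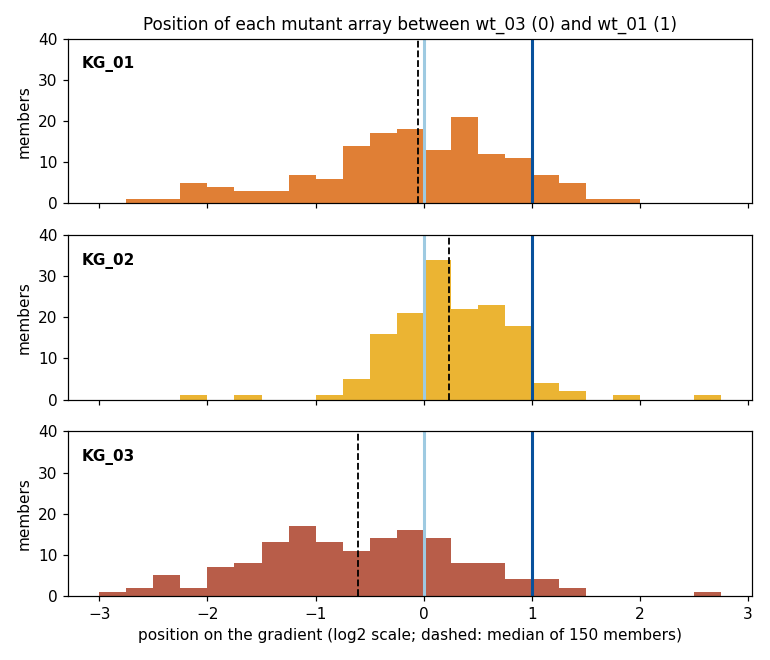
Histograms of the position of the 150 probe sets on the wild-type gradient (x axis, log2 scale; y axis, number of probe sets) for each mutant array, with lines at wt_03 (0) and wt_01 (1) and a dashed line at the median. Most of KG_02 lies between the lines, KG_01 straddles wt_03, and KG_03 has its median at -0.60.

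The mutant arrays also differed among themselves more at these probe sets than elsewhere. The median SD over the 3 mutant arrays was 0.75 on the log2 scale for the 150 and 0.31 for all 8538 probe sets. The rule did not use differences among mutant arrays, but it took probe sets with a wide spread over the wild-type arrays. The median SD over those was 0.54 for the 150 and 0.20 for all 8538. A tendency of such probe sets to vary in other arrays as well was not tested. KG_02 was the highest mutant array at 86 of the 150 (57.3%), against 67.2% of the 1590 that fell in order and 34.9% of all 8538. KG_03 was the lowest mutant array at 94 of the 150 (62.7%), against 35.7% of the 1590 and 22.6% of all. A total of 3 patterns was counted, and their cut at 2-fold was chosen after the values were seen. In the first, KG_02 was over 2-fold above both other mutant arrays. This held at 39 of the 150 (26.0%), against 13.6% of the 1590 that fell in order and 4.02% of all 8538. In the second, KG_03 was over 2-fold below both other mutant arrays. This held at 34 of the 150 (22.7%), against 2.70% of the 1590 and 1.09% of all. In the third, KG_01 was over 2-fold above both other mutant arrays. This held at 11 of the 150 (7.33%), against 0.881% of the 1590 and 1.01% of all. Probe sets of the first pattern had a median signal of 196 over the 6 arrays, those of the second 74.97 and those of the third 44.2. None of these counts was tested.

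Brightness moved with these positions. For the 101 probe sets that reached 4 times the floor in wt_01, the median positions were -0.28, 0.22 and -0.90 in KG_01, KG_02 and KG_03. For the other 49 they were 0.50, 0.25 and -0.08. KG_01 was the array scaled up most, and the part of scaling in its higher position among dim probe sets was not tested.

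To describe the set by role, 56 genes whose function is well known were sorted into 9 groups after their values had been seen, so the groups carry no test. Their counts are read against the whole set, where KG_02 was the highest mutant array at 57.3% and KG_03 the lowest at 62.7%. Among genes of lipid handling, KG_02 was the highest mutant array at 4 of 5. The lipid group held Agpat2 and Agpat4, acyltransferases on the way to phosphatidic acid, LpR1, a lipophorin receptor, Acbp2, an acyl-CoA binding protein, and Gpdh1, which makes glycerol 3-phosphate. Median positions were 0.68 in KG_02, -0.25 in KG_01 and -0.61 in KG_03. Agpat2 (1625344_at) had signals of 1103, 871 and 491 in wt_01, wt_02 and wt_03 and 432, 506 and 553 in KG_01, KG_02 and KG_03. All its mutant arrays lay close to wt_03. LpR1 had 222, 162 and 106 in the wild type, and 76.8, 106 and 66.5 in the mutant. Gpdh1 was a member through 1 dimmer probe set. Its 3 other tested probe sets, at 2054 to 9423 in the wild type, fell by 0.19 to 0.38 on the log2 scale, and 1 of them was in the order of the rule.

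The sugar and intermediary metabolism group showed the widest split between mutant arrays. Hex-C (1630147_at) encodes a hexokinase, which traps glucose in the cell as its phosphate, and had 1397, 885 and 556 in wt_01, wt_02 and wt_03. In the mutant it was at 75.7 in KG_01, 1373 in KG_02 and 113 in KG_03. KG_02 thus lay just under the highest wild-type array, while the other mutant arrays were far below the lowest. D2hgdh (1637491_s_at), which oxidises D-2-hydroxyglutarate, had 2059.7, 1399 and 1136 in the wild type and 307, 1663 and 366 in the mutant. Gyg, the glycogenin that primes glycogen chains, had 75.4, 54.6 and 37.8 against 27.3, 52.2 and 16. In all 3 genes KG_02 lay within the wild-type range and both other mutant arrays below it.

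Genes of amino acid and polyamine metabolism had KG_02 as the highest mutant array in 5 of 5 cases. Cbs, which makes cystathionine from homocysteine and serine, had 992, 670 and 509 in the wild type and 229, 738 and 256 in KG_01, KG_02 and KG_03. Dbct, the transacylase of the branched-chain keto acid complex, had 407, 354 and 227 against 80.5, 359.9 and 92.5. Odc1 and Odc2, neighbouring genes for ornithine decarboxylase, the first step of polyamine synthesis, behaved otherwise in the mutant. Odc1 had 736, 410.1 and 386 in the wild type and 637, 972 and 450.2 in the mutant, all 3 above wt_03. Odc2 had 656, 493 and 351 against 332, 568 and 538.

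The mitochondrial group was mixed. Dic1, a carrier of dicarboxylates across the inner membrane, had 1666, 1312 and 869 in the wild type and 492, 1387 and 508 in KG_01, KG_02 and KG_03. UQCR-6.4, a subunit of respiratory complex III, had 162, 114 and 80.7 against 59.0, 154 and 60.3. In both, KG_02 was inside the wild-type range and the other mutant arrays below it. Bmcp, a mitochondrial carrier of the uncoupling protein family, went the other way, with 121, 84.1 and 64.4 against 112, 56.4 and 107. The genes mIF2 and IleRS-m serve mitochondrial translation. For mIF2 the signals were 68.0, 56.1 and 34.1 in the wild type against 39.1, 55.8 and 44.9, with all mutant arrays inside the wild-type range. For IleRS-m they were 55.3, 47.7 and 27.6 against 21.1, 27.9 and 38.1, with KG_01 alone below that range.

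Transport proteins formed the largest group of known role, with 15 genes on 16 probe sets, and here KG_03 was the lowest mutant array at 14 of 16. Median positions were 0.29 in KG_01, 0.04 in KG_02 and -0.93 in KG_03. CG17752 (1627080_at), of the organic ion transporter family, had 790.3, 404 and 327 in wt_01, wt_02 and wt_03 and 317, 212 and 38.7 in KG_01, KG_02 and KG_03. Oatp58Da, an organic anion transporter, had 95.1, 46.7 and 33.9 against 60.3, 28.0 and 7.99, and its paralogue Oatp58Dc had 169, 66.1 and 49.4 against 42.5, 43.9 and 23.5. KG_03 was thus the lowest array in all 3 genes, under the floor in Oatp58Da and just above it in Oatp58Dc. The gene salt, a member of the sodium-solute symporter family, had 255, 109 and 94.4 against 88.2, 57.9 and 12.8. Smvt, a sodium-dependent vitamin transporter of the same family, had 80.9, 33.2 and 24.6 against 28.7, 24.4 and 8.99. The zinc transporter gene Zip48C had 543, 299 and 256 against 166, 217 and 95.5. Orct, an organic cation transporter, was an exception with 638, 407 and 339 in the wild type and 1179, 392 and 523 in the mutant, where KG_01 was the highest of all arrays.

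The 5 genes of detoxification all had KG_03 as the lowest mutant array. GstE10, a glutathione S-transferase, had 297, 131 and 101 in the wild type and 127, 111 and 16.4 in KG_01, KG_02 and KG_03. The cytochrome P450 genes Cyp12a4 and Cyp6a18 had 215, 146 and 90.5 against 70.1, 49.6 and 18.8, and 62.8, 33.5 and 22.9 against 25.2, 20.5 and 2.56. In these 3 genes KG_03 was under the floor and both other mutant arrays were above it. Ugt317A1, a glycosyltransferase gene, had 364, 231 and 192 against 43.9, 173 and 32.8, with all 3 mutant arrays below every wild-type array.

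The cell junction genes mesh and Ssk, which encode parts of the smooth septate junction of gut and Malpighian tubule epithelia, gave the same order as the transporters. Ssk had 74.8, 72.3 and 37.7 in the wild type and 65, 41.6 and 16 in KG_01, KG_02 and KG_03. For mesh the values were 54.9, 54.5 and 18.7 against 27.4, 14.0 and 3.99. Both are dim, and wt_02 lay close to wt_01 in each.

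Among secreted and extracellular proteins, KG_02 was the highest mutant array at 7 of 8 probe sets. Pericardin (prc), a collagen-like protein of the matrix around the heart, had 1484, 859 and 544 in the wild type and 99.9, 740.0 and 65.1 in KG_01, KG_02 and KG_03. Nepl11, a neprilysin-like protein, was represented by 2 probe sets. The first had 519, 277 and 146 against 68.7, 518 and 66.9, and the second 632, 334 and 194 against 156, 626 and 118. KG_02 thus lay at wt_01 in both. The lectin gene lectin-24A had 308, 282 and 153 against 61.1, 296 and 78.3.

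In the nuclear and RNA group, Gar1 (1628723_at) stood lowest. It encodes a subunit of the box H/ACA ribonucleoproteins that modify ribosomal RNA, and had 1229, 869 and 681 in the wild type against 159.7, 455 and 164 in the mutant. All 3 mutant arrays lay below wt_03, with KG_02 nearest to it. The other 6 genes of the group, among them the replication factor gene Mcm10, the splicing factor gene B52 and the helicase genes Prp5 and mahe, had at least 1 mutant array above wt_03. B52 was a member through 1 dim probe set, with 79.5, 45.4 and 39.7 in the wild type. Its bright probe sets, at 1227 to 2056 in the wild type, fell by only 0.13 and 0.23 on the log2 scale. In both of these all 3 mutant arrays lay below wt_03. At its other dim probe sets at least 1 mutant array was above wt_03.

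**Figure D3:**
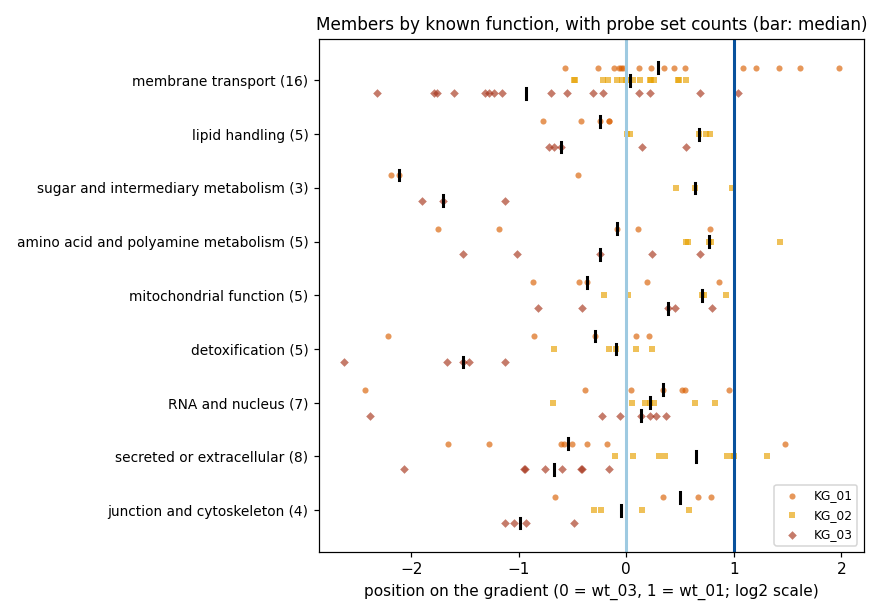
Position of each mutant array on the wild-type gradient (x axis, 0 at wt_03 and 1 at wt_01) for the probe sets of 9 groups of known function, with the number of probe sets in brackets and a black bar at the median. KG_03 has the lowest median in 7 of the 9 groups, all but sugar and mitochondrial genes, and the KG_02 median lies between the lines in 7 of the 9, all but detoxification and junction genes.

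Mutant and wild type were then compared with limma over all 8538 probe sets (Benjamini-Hochberg adjustment, threshold 0.05, two-sided). Of the 150, 2 were lower in the mutant and none was higher, or 1.33%, against 1.39% called over all probe sets (0.632% lower and 0.761% higher). The share was thus near the background. The rule widened the wild-type spread of the 150, which makes a call harder, and it removed the probe sets lost in all mutant arrays. It also asked for a high wt_01, which raises the wild-type mean and leans every difference towards lower in the mutant, so nothing is read from the counts and medians that follow. At an unadjusted p under 0.05, 35 of the 150 were lower (23.3%), against 12.5% of all probe sets, and 2 were higher (1.33%), against 14.8%. Without KG_02, 67 of the 150 were lower at that level (44.7%), against 20.1% of all probe sets. The median difference, mutant minus wild type, was -0.66 on the log2 scale for the 150 and 0.10 for all 8538, and the fitted difference was below 0 at 126 of the 150. The call depended on KG_02: without it 55 of the 150 passed as lower and 1 as higher, against 16.7% and 20.4% of all probe sets, so that the share lower was 36.7%. The median difference was then -1.0 on the log2 scale, with 132 of the 150 below 0. It was -0.37 without wt_01, with 108 below 0, and -0.42 without KG_03, with 119 below 0.

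The 2 called probe sets were those of nol and CG11300. CG11300 (1624206_at) had 2859.6, 1666 and 1039 in wt_01, wt_02 and wt_03 and 158, 125 and 48.9 in KG_01, KG_02 and KG_03. The groups were far apart, and KG_02 sided with the other mutant arrays. Its difference was -4.03 with a standard error of 0.50 on the log2 scale (limma adjusted p = 0.0148), and the mean of the log2 signals corresponds to a 17.3-fold lower level. The call was lost without KG_03, wt_01 or wt_02 (limma adjusted p = 0.0542, 0.0637 and 0.0973). The second, nol (1632849_at), had 1585, 624 and 370 in the wild type and 20.7, 26.9 and 8.85 in the mutant. Its difference was -5.0 with a standard error of 0.55 on the log2 scale (limma adjusted p = 0.0112), at least 32.1-fold lower with the mutant array under the floor set to the floor. That call was lost without KG_01, KG_03 or wt_02 (limma adjusted p = 0.0555, 0.0628 and 0.0683).

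All 3 mutant arrays lay below all 3 wild-type arrays at 22 of the 150 (14.7%). The share was 26.1% of the 1590 that fell in order and 13.5% of all 8538 probe sets. The count rests on wild-type values that the rule used, so nothing is read from it. Besides nol and CG11300 the 22 included Gar1, Ugt317A1, CG12288, Cyp12a4, CG17752, salt, Oatp58Dc and Zip48C. CG12288 (1624937_at) had 429, 336 and 224 in the wild type and 60.3, 213 and 62.5 in the mutant. Gar1 did not pass the test with all arrays (difference -1.95, standard error 0.43 on the log2 scale, limma adjusted p = 0.0954) and passed without KG_02 (-2.44, limma adjusted p = 0.00128). The same held for Ugt317A1, CG12288 and D2hgdh, with limma adjusted p = 0.133, 0.129 and 0.198 with all arrays and 0.00186, 0.00215 and 0.00212 without KG_02.

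All 3 mutant arrays lay above all 3 wild-type arrays at 2 of the 150 (1.33%). The share was 5.91% of the 1590 that fell in order and 16.5% of all probe sets. The rule asked for a high wt_01, which makes such cases rare, so nothing is read from the count. Neither of the 2 can be named: 1625698_at is paired with several genes and 1640955_s_at with none. Probe set 1625698_at had 269, 131 and 102 in the wild type and 404, 647 and 1128 in KG_01, KG_02 and KG_03. It passed without KG_02 (limma adjusted p = 0.0197) and not with all arrays (0.0957). Probe set 1640955_s_at had 145, 104 and 72.2 against 202, 424 and 172. Among probe sets that reached 4 times the floor in wt_01, the highest median mutant positions with a gene name were those of Odc1, Bmcp and CG7149. Their differences did not pass (limma adjusted p = 0.432 to 0.984). CG7149 had 96.6, 72.2 and 95.5 in the mutant against 116, 72.7 and 47.2. The other tested probe set of Bmcp was not in order, with 36.8, 46.7 and 40.8 in the wild type. Dimmer probe sets, such as those of CG10469, nrv3 and Pde9, had higher median mutant positions of 1.06, 1.04 and 0.92.

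**Figure D4:**
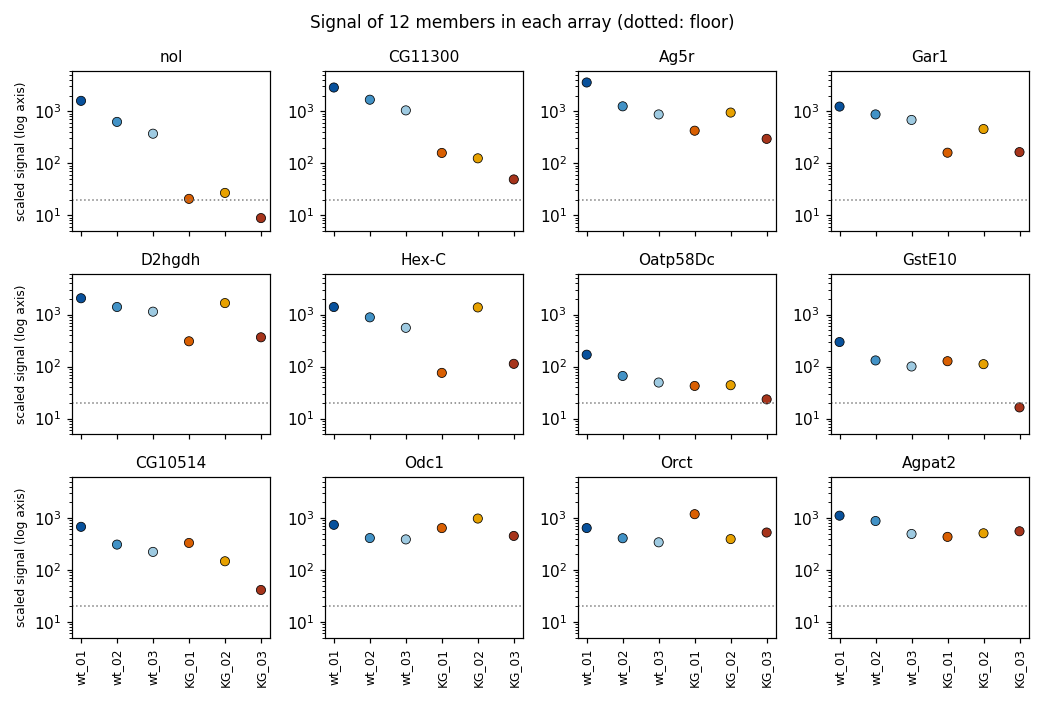
Scaled signal (log axis) of 12 genes of the set in each of the 6 arrays, 1 point per array, with a dotted line at the floor of 19.9. For nol and CG11300 all mutant arrays lie far below the wild type, for Hex-C and D2hgdh KG_02 alone lies within the wild-type range, and for GstE10 and CG10514 KG_03 lies lowest.

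Gene lists of pathways and tissues were set beside the 150. The set held no gene of oxidative phosphorylation, the mitochondrial or cytosolic ribosome, ribosome biogenesis, glycolysis, lipid synthesis and storage, or the ecdysone response that was on these lists. The lists are short and leave out genes of the set with related roles, such as UQCR-6.4, Gar1, Hex-C, Agpat2, Agpat4 and Gpdh1. They had 9 to 67 tested genes each, and the set is 150 of 8538 tested probe sets. Few or no members would be due to such lists by that share, so nothing is read from the absence. The set held 2 of 47 tested cytochrome P450 genes and 1 of 26 tested glutathione S-transferase genes. It also held cpx, the synaptic protein complexin, from the nervous system list. The cpx probe set had 79.7, 41.9 and 36 in the wild type and 28.0, 47.7 and 22.6 in the mutant. Some listed genes fell in the same order by smaller steps. Of all 8538 probe sets, 18.8% were in strict order from wt_01 down to wt_03, and the median fall was -0.05 on the log2 scale. Of tested mitochondrial ribosome genes 34 of 67 were in that order, with a median fall of 0.28. Of oxidative phosphorylation genes it was 11 of 23, with a median fall of 0.22. Of ribosome biogenesis genes it was 12 of 19, and of cell cycle and replication genes 7 of 14, with median falls of 0.47 and 0.37. None of the genes in these 4 lists passed the limma comparison with all arrays, where 1.39% of all probe sets did. Leaving out each array in turn was planned with earlier results of these data known. Without KG_02, 57 of 67, 22 of 23, 15 of 19 and 4 of 14 passed as lower in the same order of lists, and none as higher. Of all probe sets 16.7% then passed as lower.

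The fat body identity of the samples was visible in its defining genes. Lsp2, a larval storage protein, had 8733 to 12238 in the wild type and 10608 to 19457 in the mutant, and apolpp, the lipophorin precursor, had 8486 to 11034 and 9610 to 15180. The yolk protein genes Yp1 and Yp2, which mark the adult fat body of females, were under the floor in all arrays, while Yp3 had 1438 to 2198 in the wild type and 389.6 to 692 in the mutant.

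Markers of other tissues moved across the same arrays. Of 14 salivary gland genes 12 had a probe set, and their summed signal was 6958, 5872 and 33582 in wt_01, wt_02 and wt_03 and 47345, 15566 and 40661 in KG_01, KG_02 and KG_03. This sum joins opposite patterns. Among the mutant arrays, ng1, ng2 and ng3 were highest in KG_02, and the Sgs genes on the list were lowest there. For ng2 the signals were 1926, 1607 and 1819 in the wild type and 450, 2442 and 445 in the mutant. Most of the sum in wt_01 and wt_02 came from ng1, ng2 and ng3. The glue gene Sgs3 had 0.668, 0.680 and 7349 in the wild type and 13491, 2831 and 9624 in the mutant. Fbp1, a fat body gene induced by ecdysone, had 101, 41.0 and 3344 in the wild type and 10578, 1166 and 7235 in the mutant. In both, wt_03 and the mutant arrays were high, and KG_02 was the lowest mutant array. Of 21 gut genes 17 had a probe set and 11 were under the floor in all arrays, with summed signals of 478, 2420 and 180 in the wild type and 1868, 63.0 and 408 in the mutant. Of 17 Malpighian tubule genes, a list added after the data were seen, 13 had a probe set and 2 were under the floor in all arrays. Their summed signal was 1247, 882 and 1004 in the wild type and 1256, 895 and 713 in the mutant. By this sum KG_03 was the lowest array and wt_02, not wt_03, the lowest wild-type array. Much of the low sum in KG_03 came from Irk3, with 301, 168 and 203 in the wild type and 391, 183 and 38.1 in the mutant. KG_03 was also the lowest array at Irk1, Dh31-R and Drip, but not at the other tested genes of the list. At ClC-a, Prip and tsh it was above every wild-type array. Muscle, blood cell and testis lists summed to 180 to 625, 4047 to 7540 and 686 to 2856 over the 6 arrays. Most of the blood cell sum came from vkg, a collagen gene at 3847 to 7405, while Hml and NimC1 were under the floor in all arrays. In the muscle, blood cell and testis lists, probe sets under the floor in all arrays numbered 1 of 9, 5 of 9 and 0 of 12. For nervous system, cuticle and oenocyte lists the sums were 54.6 to 112, 23.2 to 57.5 and 30.8 to 48.6. In pooled tissue, fewer cells of a type and less RNA per cell cannot be told apart, and the part of these markers in the fall of the 150 was not tested.

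Other features were not used by the rule. Of the 135 genes, 16 had a further tested probe set outside the 150, and at 9 of these 16 genes such a probe set also fell in order. The other 7 had none that did. Genes with many probe sets had more occasions to count: mod(mdg4) had 15 tested probe sets, of which 3 fell in order, and B52 had 5, all in order. Of all 8538 probe sets 18.8% were in order, and the count was not tested. Genes next to each other on the chromosome occurred in 5 pairs, counted among protein-coding genes of the reference table: CG8837 with CG33281, Odc1 with Odc2, cpx with Nepl11, salt with CG2187, and CG2187 with Smvt. In the run of salt, CG2187 and Smvt KG_03 was the lowest mutant array in all 3, as it was at 62.7% of the set. The median signal over the 6 arrays was 81.1 for the 150 and 105 for all 8538.

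For comparison, a mirrored rule took the 150 probe sets that rose most in order from wt_01 to wt_03. On the same scale, with 1 at wt_01 and 0 at wt_03, their median positions were -0.53, 0.31 and -0.52 in KG_01, KG_02 and KG_03. KG_02 lay between the wild-type ends in both sets. KG_01 and KG_03 lay at nearly the same place beyond wt_03 in the rising set, whereas in the falling set they were apart at -0.05 and -0.60. Positions are shares of each probe set's own wild-type change, whose size was not compared between the sets. This difference between the sets was not tested.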

How the data were processed

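The authors deposited linear signal intensities for each probe set. Per the submitters' processing notes, the software was GCOS 1.4 and MAS5, with no settings given in the sources used here. Unequal trimmed means show no common target in the authors' intensity table.

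The 183 control probe sets were removed, each array was scaled by its trimmed mean (2% per end) to the mean of the 6, and log2(signal + 5) was used, which understates changes of dim probe sets. Groups came from the sample titles. The test was limma 3.58.1 in R 4.3.3 (lmFit, eBayes with trend) on 8538 probe sets, without a replicate block, and it was tested on simulated data. Alternatives covered scaling, pseudocount, filter, variance trend, the block and leaving out each array.

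The 150 probe sets, the gene lists and the tests were chosen with earlier results of these data known. Named genes are the 10 largest falls, all calls, the 5 highest and 5 lowest mutant positions among bright probe sets, the last inside the limit and those in a list. Genes of the functional groups, CG10514, and those named as examples fall outside this rule and were chosen after their values were seen. For gene lists the brightest probe set of each gene was used, among 11981 named genes. Symbols were checked against a RefSeq table of 17872 genes. Levels of different probe sets were not compared as amounts of RNA.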

Additional observations from a re-analysis of the deposited data

How the results depend on the processing

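Under quantile normalization, median centring, pseudocounts of 1 and 16, both other filters, no variance trend and the replicate block, 2 passed, the same number as in the main test. Of the 150, 146 were tested under quantile normalization and 111 with the floor doubled. When each array was left out in turn, 0 to 56 of the 150 and 21 to 3163 of all probe sets passed, against 2 and 119 in the main test, with both highest counts without KG_02. With the replicate block 16 of all probe sets passed. Deviations from the group mean correlated between same-numbered arrays at -0.34, -0.11 and 0.45, so the numbers were not taken to pair the samples. The cause of these changes was not tested. The median position moved by less than the spread between mutant arrays (SD 0.43) under every alternative run: -0.28 to 0.01 for KG_01, 0.08 to 0.26 for KG_02, -1.03 to -0.55 for KG_03 and -0.35 to 0.12 for their mean. Its sign changed for KG_01 with the 50 largest falls and for the mean without KG_03. For KG_03 with the 50 largest falls the move, from -0.60 to -1.03, nearly equalled the spread between mutant arrays. That spread is an SD of only 3 medians. The same rule kept 128 to 149 of the 150 under other scalings and pseudocounts. Scaling with the control probe sets and the restriction to 101 bright probe sets were chosen after seeing the data. The fitted sign of CG11370, CG31198, CG13067, CG7149 and Bmcp, none of them called, changed in 1 to 6 of their alternatives. Background limits what signals near 19.9 can show.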
